A study of Mus musculus with 9 samples.

Results

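Prefrontal cortex of Shank3 mutant mice given saline was compared with that of wild-type mice given saline, by RNA sequencing of 3 libraries in each group, taken as the columns that the labels assign to these groups. These are 6 of the 9 libraries of the study; the other 3 came from Shank3 mutant mice given UNC0642, an inhibitor of the histone methyltransferases EHMT1 and EHMT2, injected intraperitoneally at 1 mg/kg once daily for 3 days, and serve here only to place the 6. All mice were at postnatal week 5 to 8. The labels give the mutant genotype as SHANK3 without naming the allele or zygosity, and say nothing of whether a library is 1 animal, so p-values reflect the spread among these libraries only, part of which may be technical. Values were compared for all 14444 genes of the deposited table.

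SHANK3 is a scaffold protein of the postsynaptic density of excitatory synapses. With the HOMER and DLGAP proteins it links glutamate receptors to each other and to the actin cytoskeleton of the dendritic spine, and its loss is known from Phelan-McDermid syndrome and from some forms of autism. Many other autism risk genes encode chromatin regulators, and the lists examined here therefore span the synapse, ion channels, chromatin, metabolism and the cell types of cortex.

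The deposited values carry an adjustment that decides what can be seen in this comparison. Gene by gene, a set of 5 libraries (all wild type, with UNC0642 replicates 2 and 3) and a set of the other 4 (all saline mutants, with UNC0642 replicate 1) have the same mean on the log2 scale, with a largest departure of 2.5e-09. A difference that is present in the saline mutants alone keeps 0.25 of its log2 size under this adjustment, and a difference shared by all 6 mutant libraries keeps 0.4. The median size of the log2 difference between the saline groups was 0.0595 in the deposited values and 0.21 before the adjustment, and the sign was the same in 77.6% of genes. Whole reads could be recovered behind every value, between 12035098 and 15227237 per library for the 6 libraries, and each comparison below is therefore given on the deposited values and on these reads.

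**Figure D1:**
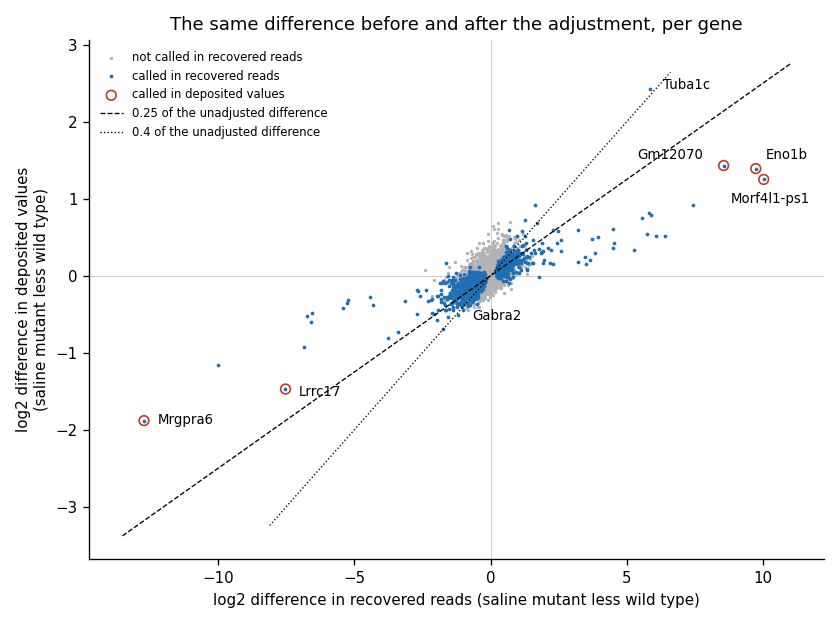
Each point is a gene; the x axis is the log2 difference, saline mutant less wild type, in recovered reads and the y axis the same difference in the deposited values on the log2(value + 0.5) scale. The 5 circled genes are those called in the deposited values; most genes with large differences lie nearer to 0 on the y axis than the dashed line of 0.25, while Tuba1c and Gabra2 lie near the dotted line of 0.4.

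In the deposited values, 3 genes were higher in the saline mutant and 2 were lower at an adjusted p under 0.05 (limma with Benjamini-Hochberg adjustment; 0.0208% and 0.0138% of 14444 genes, 0.0346% in either direction), and 125 genes (0.865%) had an unadjusted p under 0.05. In the recovered reads, 1483 of 14415 tested genes were higher (10.3%) and 1674 were lower (11.6%) by limma-voom. A difference of at least 2-fold was called higher in 86 genes (0.597%) and lower in 174 (1.21%). The number of genes whose 3 mutant libraries all lay above the 3 wild-type libraries was 250 in the deposited values (1.73%) and 3007 in the reads (20.8%), and 246 (1.7%) and 2863 (19.8%) lay below. Leaving out a single library moved the deposited counts between 0 and 5 higher and between 1 and 7 lower, and the counts in reads between 519 and 1638 higher and between 776 and 1813 lower. The smallest counts in reads were those without wild-type replicate 2 (519 higher, 776 lower), saline mutant replicate 1 (654 higher, 783 lower) and saline mutant replicate 3 (706 higher, 865 lower).

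In the recovered reads the first principal component, with 51.7% of the variance, put UNC0642 replicate 3 with the wild type and UNC0642 replicates 1 and 2 with the saline mutants, a division that crosses the labels in 1 mutant library. Among the 3157 genes called in reads, UNC0642 replicate 3 was nearer the wild-type mean in 84.1%, against 7.92% for replicate 1 and 10.9% for replicate 2. Rn45s, the precursor of ribosomal RNA, took 0.412% to 0.56% of wild-type reads, 0.197% to 0.25% of saline mutant reads and 0.612% of the reads of UNC0642 replicate 3. With the division as a term in a fit of all 9 libraries, 0 genes were called by limma-voom and 710 (4.93%) had an unadjusted p under 0.05. In that fit the effect of the division is estimated only from UNC0642 replicates 1 and 2 less replicate 3, and is taken off the difference of the saline groups, so its values also hold how the UNC0642 libraries differ among themselves. In the 6 libraries themselves the division coincides with genotype, and the 2 cannot be told apart.

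The difference in reads ran with transcript length. Among 13869 genes with a length in GENCODE M21, divided into 5 bins by length, the bin of shortest transcripts had a median log2 difference of 0.21, with 24.9% called higher and 2.85% called lower, and the bin of longest transcripts had a median of -0.20, with 1.95% called higher and 30.6% called lower. Spearman's rho between length and difference, across genes that are not independent replicates, was -0.41 in reads and -0.01 with the division as a term. UNC0642 replicate 3 less replicates 1 and 2 ran the other way, from -0.18 in the shortest to 0.20 in the longest. The part of length and of ribosomal RNA in the gene family results below was not tested.

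**Figure D2:**
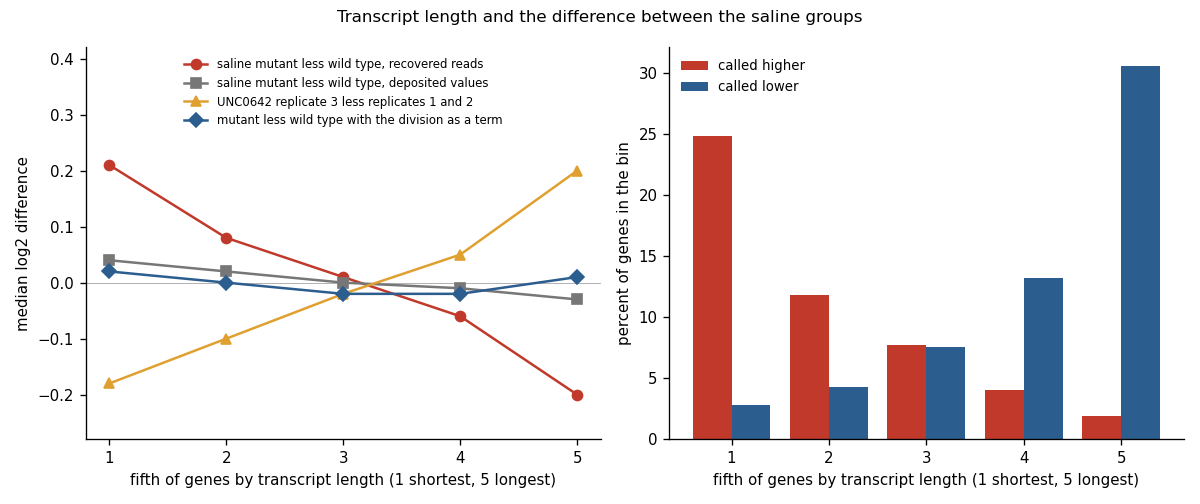
Left, the median log2 difference of genes in 5 bins by transcript length, with 1 line per comparison; right, the percent of genes in each bin called higher or lower in recovered reads. The saline mutants are higher in short and lower in long transcripts in reads, and the line of the fit with the division as a term stays near 0.

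Shank3 mRNA itself was at 295, 309 and 357 RPM (recovered reads per 1000000 reads of the library) in the wild type (replicates 1 to 3, the order used throughout) and at 337, 349 and 321 in the saline mutants. The groups overlapped, and neither test called a difference: the log2 difference was 0.08 ± 0.08 (SE) in reads (adjusted p = 0.47, limma-voom) and 0.03 ± 0.08 in the deposited values (adjusted p = 1, limma). Gene counts without exon positions do not show whether the mutant mRNA lacks part of its sequence. Of the 10 measured genes nearest to Shank3 on either side, 20 in all, 1 was called higher in reads (Cpne8, a copine) and 3 lower (Abcd2, Slc2a13 and Lrrk2), against 10.3% higher and 11.6% lower among all genes. Of the inhibitor's targets, Ehmt1 was lower in all 3 mutant libraries, at 32, 35.7 and 33.7 against 36.4, 37.2 and 39.0 RPM, but the difference of -0.14 ± 0.09 did not pass the test (adjusted p = 0.27, limma-voom). Ehmt2 was called higher in reads, with 258, 247 and 240 against 222, 195 and 225 RPM (log2 0.23 ± 0.08, adjusted p = 0.049, limma-voom); its log2 difference was 0.04 ± 0.08 in the deposited values. The call was lost without any one of saline mutant replicates 1, 2 and 3 or wild-type replicate 2 (adjusted p between 0.1 and 0.22, limma-voom).

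Mrgpra6, of the Mas-related G protein-coupled receptor family, separated the groups most. It was at 191, 234 and 313 RPM in the wild type and had no read in any saline mutant library, which makes it at least 3457-fold lower against a floor of 3 reads over the group (a floor and intervals of this kind cover counting error only). Lrrc17, which encodes a secreted leucine-rich repeat protein, stood at 128, 148 and 125 in the wild type and 0.797, 0.46 and 0.906 in the saline mutants. These 2 genes were also the 2 called lower in the deposited values, with log2 differences of -1.88 ± 0.18 (adjusted p = 0.00088, limma) and -1.47 ± 0.18 (adjusted p = 0.0076). UNC0642 replicate 3 held 248 RPM of Mrgpra6 and 166 of Lrrc17, while UNC0642 replicates 1 and 2 held 0 of Mrgpra6 and 1.14 and 0.619 of Lrrc17.

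Mir6240 is annotated as a microRNA gene, and its sequence is shown because no read was counted to it in any saline mutant library. It had 39.7, 29.8 and 40.5 RPM in the wild type and 0 in all 3 saline mutants, at least 513-fold lower against the same floor, and 53.2 in UNC0642 replicate 3. Reads of ribosomal RNA-depleted total RNA counted to this gene do not separate the mature form from the hairpin. They also do not show that a microRNA was made. Sequence shared with other genes could not be examined for Mir6240 or Rn45s. The hairpin lies at chr5:114851948-114852064 on the plus strand (RefSeq, GRCm38.p6), and its mature arm is in capitals. In the mature form the capitals mark the seed, bases 2 to 8.
Mir6240 hairpin: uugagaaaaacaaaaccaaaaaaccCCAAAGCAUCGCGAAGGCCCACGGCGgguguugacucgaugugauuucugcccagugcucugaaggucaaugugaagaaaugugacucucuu
mature miR-6240: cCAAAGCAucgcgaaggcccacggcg
Lars2, which encodes the mitochondrial leucyl-tRNA synthetase, moved the same way as Rn45s and Mir6240 in these libraries. It was at 894, 729 and 876 RPM in the wild type and 303, 315 and 401 in the saline mutants, with 1200 in UNC0642 replicate 3, and its fall by 1.29 on the log2 scale was called in reads (adjusted p = 1.4e-05, limma-voom). With the division as a term its log2 difference was 0.79. Whether reads of ribosomal RNA were counted to Mir6240 or Lars2 was not tested.

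The 3 genes called higher in the deposited values are near-identical copies of other genes. Gm12070 shares 95.9% of its 32-base words with Gapdh, Eno1b shares 78.1% with Eno1 and Morf4l1-ps1 shares 96.8% with Morf4l1. Gm12070 was at 80.6, 72.4 and 74.9 RPM in the saline mutants and 0.166, 0.301 and 0.0804 in the wild type (deposited log2 1.43 ± 0.19, adjusted p = 0.022, limma). Eno1b was at 57.1, 58.4 and 56.0 against 0, 0 and 0.161, a ratio of 1080 with a 95% exact counting interval of 299 to 8920. Morf4l1-ps1 was at 37.2, 46.0 and 39.3 against no read at all, at least 517-fold higher. The groups did not overlap for any of the 3 genes, and UNC0642 replicate 3 had 0.198, 0.0661 and 0 RPM of them. Because a read from one copy can be placed on the other, the level of each copy is uncertain.

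For these pairs the other copy did not move alike. Eno1, the glycolytic enolase, fell in reads while its copy rose, from 47.9, 45.1 and 34.5 to 18.6, 18.2 and 20.9 RPM (log2 -1.12 ± 0.14, adjusted p = 0.0004, limma-voom). Morf4l1, a chromodomain protein of histone acetylation complexes, was at 187, 185 and 171 in the wild type and 218, 192 and 220 in the saline mutants, a difference that did not pass the test (adjusted p = 0.066, limma-voom). Gapdh, the glycolytic dehydrogenase often used as a reference gene, was at 831, 739 and 675 RPM in the wild type and 1330, 1340 and 1340 in the saline mutants (log2 0.85 ± 0.09, adjusted p = 7.6e-05, limma-voom). UNC0642 replicate 3 had 735 RPM of Gapdh, within the wild-type range. Tmem181a fell from 69.0, 72.9 and 74.2 to 32.1, 27.6 and 31.2 (log2 -1.24 ± 0.09) while the pseudogene Tmem181c-ps, which shares 80.4% of its words with other genes, rose from 5.65, 7.84 and 9.48 to 33, 28.9 and 25.8 (log2 1.95 ± 0.18).

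Copies were frequent among the strongest differences. Of the 38 genes called in reads with a difference of at least 8-fold, 23 were higher and 15 lower, and 16 of the 34 that could be examined (47.1%) had at least 50% of their 32-base words in transcripts of another gene, against 2.4% of all tested genes. UNC0642 replicate 3 was nearer the wild type in 37 of the 38, and the exception was Tuba1c, an alpha-tubulin that shares 51% of its words with Tuba1b. Tuba1c had 0.332, 0.151 and 0.161 RPM in the wild type and 3.75, 22.1 and 26.5 in the saline mutants, and 1.55, 20.4 and 18.5 in the UNC0642 libraries. Saline mutant replicate 1 lay far below the other 2, as did UNC0642 replicate 1, and the log2 difference of 5.85 ± 1.76 passed the test in reads (adjusted p = 0.031, limma-voom) but not in the deposited values (2.42 ± 0.48, adjusted p = 0.35, limma). Others of this kind were Rpl31-ps12, with 7.81, 10.6 and 11.1 RPM against 0, 0 and 0.0804, and Rpl37rt, with 8.05, 11.7 and 11.9 against 0.249, 0.151 and 0.0804. Their counterparts Rpl31 (log2 0.06) and Rpl37 (log2 0.36) were far closer between the groups. Dynlt1a, a dynein light chain gene with several near-identical neighbours, went the other way, from 33.3, 39.1 and 42.6 to 1.99, 3.74 and 2.72 RPM.

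**Figure D3:**
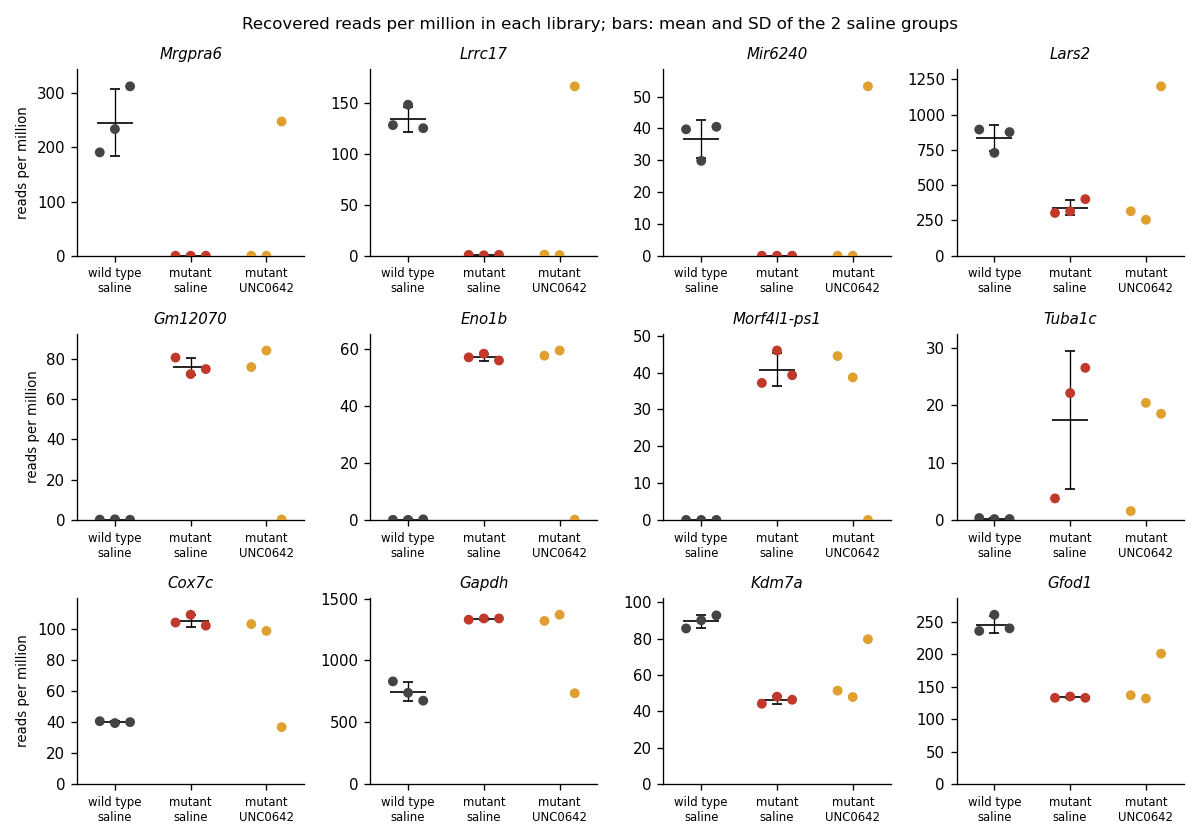
RPM (y axis, linear, separate for each gene) in each library for 12 genes; black bars are the mean and SD of the 3 wild-type and the 3 saline mutant libraries. The 3 wild-type and 3 saline mutant points do not overlap in any panel, and the last UNC0642 point, replicate 3, is nearer the wild-type mean in all but Tuba1c.

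Among abundant genes, those with the smallest p and a mean of at least 500 reads differed with little spread between replicates. Choosing by p favours both little spread and groups that do not overlap. Cox7c, a subunit of cytochrome c oxidase, was at 104, 109 and 102 RPM in the saline mutants and 40.5, 39.3 and 39.9 in the wild type (log2 1.41 ± 0.08, adjusted p = 3.1e-07, limma-voom). Tuba1b, an alpha-tubulin, was at 268, 268 and 266 against 142, 141 and 146. Rpl14, of the large ribosomal subunit, Fabp5, a fatty acid-binding protein, Bex2 and Marcksl1 also rose, by 1.02, 0.99, 0.93 and 0.98 on the log2 scale. The same list held Dusp1, an immediate early phosphatase that inactivates MAP kinases (0.76 ± 0.08), and Gpr39, a zinc-sensing receptor (0.73 ± 0.08). In the opposite direction, Kdm7a, a demethylase of histone H3 lysine 9 and 27, fell from 85.6, 90.1 and 92.8 to 44.2, 48.1 and 46.4 (log2 -0.94 ± 0.08, adjusted p = 8.7e-06, limma-voom). Gfod1 fell by 0.87, Gse1, a partner of lysine demethylase complexes, by 0.96, and Cbfa2t3, a transcriptional corepressor, by 0.93. In none of these 12 genes did the groups overlap. Tuba1b shares 71.1% of its 32-base words with other genes, Rpl14 43.2%, Bex2 34.9% and Cox7c 32.3%. The level of each of these 4 is therefore uncertain, because reads can be placed on a copy. Dusp1, Gpr39, Gfod1, Gse1 and Cbfa2t3 shared 0%. Gpr39 and Cbfa2t3 were also among the 10 genes of smallest p in their direction in the deposited values, and Gse1 in the fit with the division as a term, whereas Cox7c had a log2 difference of -0.05 in that fit.

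In recovered reads, many genes for protein synthesis, respiration and protein breakdown were called higher and almost none lower, and none was called in the deposited values. Of 81 cytosolic ribosomal protein genes, 49 were called higher in reads and 0 lower, against 10.3% and 11.6% of all genes, and their median log2 difference was 0.27 against 0 for all genes. Of 80 nuclear genes of oxidative phosphorylation, 48 were higher and 0 lower (median 0.29), of 76 mitochondrial ribosomal protein genes 25 were higher and 0 lower (median 0.26), and of 47 proteasome genes 26 were higher and 1 lower (median 0.28). Summed over the list, oxidative phosphorylation genes held 10200, 9780 and 9530 RPM in the wild type, 12100, 11600 and 12200 in the saline mutants and 9910 in UNC0642 replicate 3. The groups did not overlap in this sum, nor in that of the cytosolic ribosomal proteins, which was 12600, 12000 and 14000 against 15600, 15900 and 15500. Examples are Rplp1, an acidic stalk protein of the ribosome, at 479, 483 and 456 against 287, 296 and 335 (log2 0.64 ± 0.07), Ndufs8 of complex I (0.56 ± 0.08), Mrpl42 of the mitochondrial ribosome (0.49 ± 0.11) and Psmb4 of the proteasome core (0.43 ± 0.07). The single gene lower was Psme4, an activator of the proteasome, at 43.2, 47.5 and 47.8 against 68.1, 73.2 and 81 (log2 -0.67 ± 0.09, adjusted p = 0.00042, limma-voom).

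These 4 lists hold short transcripts: the median length was 1094 bases for cytosolic ribosomal proteins, 1141 for oxidative phosphorylation, 1866 for mitochondrial ribosomal proteins and 1907 for the proteasome, and 82.7%, 77.2%, 52.6% and 61.7% of their genes fell in the shortest bin. Many of them have processed copies elsewhere in the genome, and Rplp1 shares 76.1% of its words with other genes. In the deposited values 74 of the 81 ribosomal and 73 of the 80 respiratory genes had a difference above 0, with medians of 0.06 and 0.05, and none was called. With the division as a term the medians were 0.20 for cytosolic ribosomal proteins, 0 for oxidative phosphorylation, -0.01 for mitochondrial ribosomal proteins and 0.02 for the proteasome. The counts called higher depended on the libraries used. Without wild-type replicate 2 they were 18, 23, 7 and 6 in the order cytosolic ribosomal, respiratory, mitochondrial ribosomal and proteasome. Without saline mutant replicate 1 they were 24, 21, 10 and 9, and without saline mutant replicate 3 they were 27, 24, 11 and 10. Without wild-type replicate 3 the proteasome count was 15.

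The promoters of these genes were read for 2 core motifs, on both strands, in windows from 250 bases before to 50 bases after the start site (RefSeq, GRCm38.p6, 10931 measured genes with a window; a window can hold both). GCGCATGC, the core of the NRF1 site, a factor known for nuclear genes of mitochondria, was found in 17.5% of 63 oxidative phosphorylation genes, 11.9% of 67 mitochondrial ribosomal protein genes and 5.08% of 59 cytosolic ribosomal protein genes, against 5.68% of all genes. CTTCCGG, a core of sites of the ETS family, was found in 25.4%, 35.8% and 39.0% of these lists and in 35% of 40 proteasome genes, against 18.1% of all genes. The first motif was in 7.5% of the proteasome genes. Of 56 axon guidance genes, 0 held the first motif and 3.57% the second, and of 12 H3 lysine 4 methylase and KDM5 genes 8.33% held the first and 0 the second. A match is a description of letters and shows no binding. The 3 windows printed have the motif in capitals, the NRF1 core for respiration and the ETS core for the others. Windows on a single chromosome were left out of the choice, so a gene there with a smaller p could not be printed. Among the remaining windows, the 3 belong to the gene of smallest p in each list that rose and holds the motif. They are Uqcr11 of complex III at chr10:80406772-80407071 (minus strand), Rpl41 of the large ribosomal subunit at chr10:128549119-128549418 (minus strand) and Psmd4, the ubiquitin receptor of the proteasome, at chr3:95042565-95042864 (minus strand).
Uqcr11: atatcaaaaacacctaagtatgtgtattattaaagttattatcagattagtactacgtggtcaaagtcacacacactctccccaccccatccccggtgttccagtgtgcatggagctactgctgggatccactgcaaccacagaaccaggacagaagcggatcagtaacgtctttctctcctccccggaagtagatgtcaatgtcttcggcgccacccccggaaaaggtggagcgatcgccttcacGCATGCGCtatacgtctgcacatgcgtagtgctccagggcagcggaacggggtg
Rpl41: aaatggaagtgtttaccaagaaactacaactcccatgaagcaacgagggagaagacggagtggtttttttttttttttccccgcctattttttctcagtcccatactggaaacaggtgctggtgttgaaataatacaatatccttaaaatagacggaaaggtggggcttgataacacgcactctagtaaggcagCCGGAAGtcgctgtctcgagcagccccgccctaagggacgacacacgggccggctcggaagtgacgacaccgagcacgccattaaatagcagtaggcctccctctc
Psmd4: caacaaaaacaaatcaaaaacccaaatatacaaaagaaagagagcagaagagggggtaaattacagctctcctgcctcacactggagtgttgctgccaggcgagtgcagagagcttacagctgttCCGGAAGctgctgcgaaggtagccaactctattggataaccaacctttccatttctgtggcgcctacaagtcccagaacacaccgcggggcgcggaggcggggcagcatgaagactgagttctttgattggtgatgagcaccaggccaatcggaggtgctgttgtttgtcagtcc
Uqcr11 was at 113, 109 and 101 RPM in the saline mutants and 85.5, 71.5 and 79.2 in the wild type, and rose by 0.47 ± 0.09 on the log2 scale (adjusted p = 0.0037, limma-voom). Rpl41 was at 345, 367 and 340 against 247, 226 and 283 (0.49 ± 0.08), and Psmd4 at 103, 98.4 and 104 against 85.0, 81.9 and 81.1 (0.31 ± 0.07). The groups did not overlap in any of the 3.

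**Figure D4:**
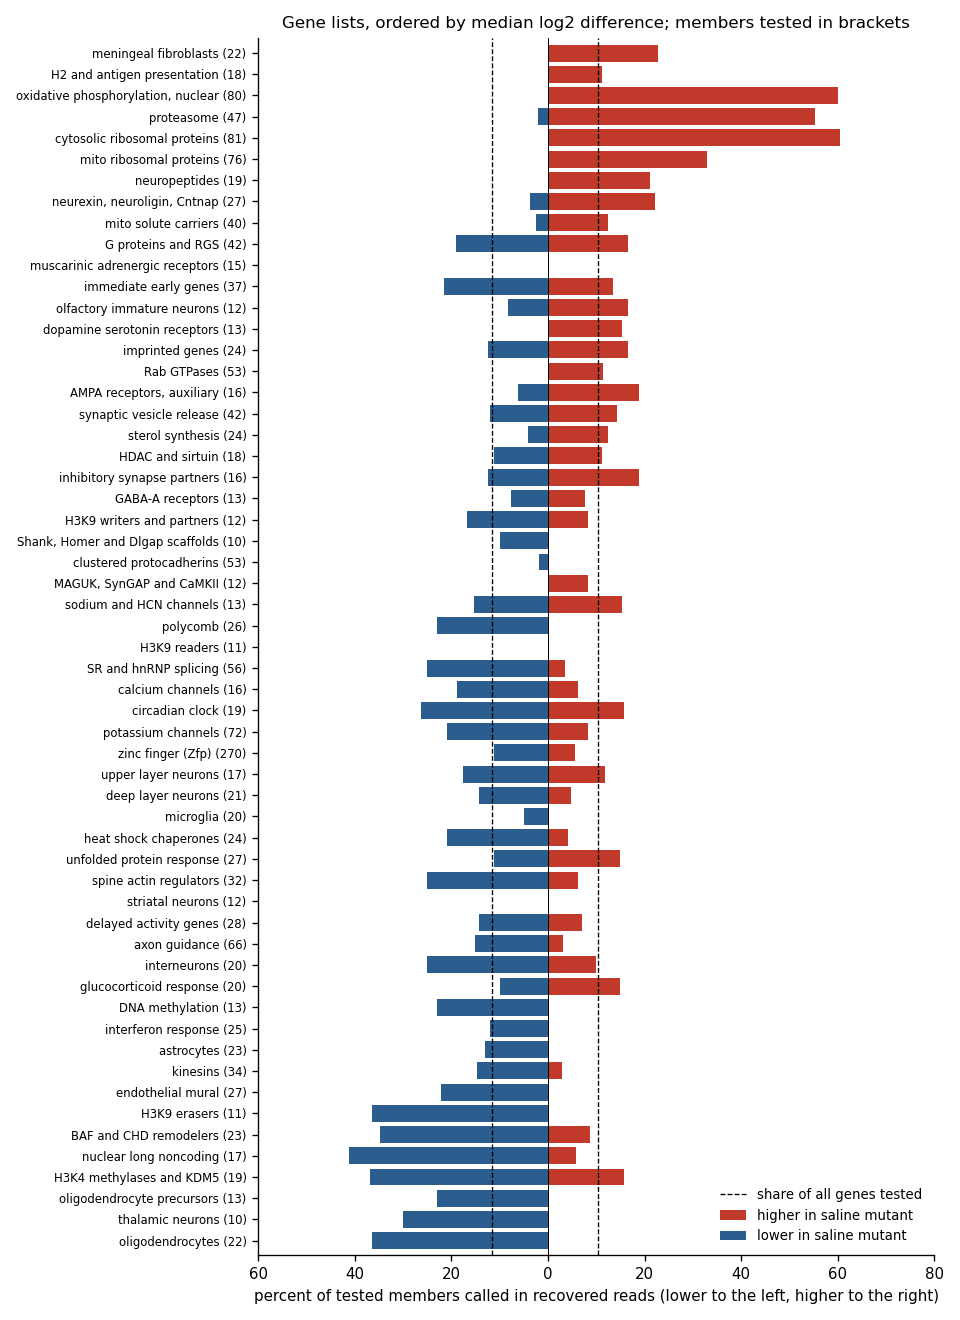
Percent of the tested members of each gene list called higher (red, to the right) or lower (blue, to the left) in recovered reads, for lists with at least 10 tested members, ordered by median log2 difference; dashed lines mark the shares of all genes, 10.3% and 11.6%. Respiration, ribosome and proteasome lists stand to the right with few or no members lower. Several but not all chromatin lists, and the noncoding RNA and oligodendrocyte lists, stand to the left.

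Several lists of chromatin regulators had more genes lower than higher, against 10.3% higher and 11.6% lower among all genes. Of 19 histone H3 lysine 4 methylases and KDM5 demethylases, 7 were lower and 3 higher (median -0.22), of 11 lysine 9 demethylases 4 were lower and 0 higher (median -0.18), and of 23 BAF and CHD remodelers 8 were lower and 2 higher (median -0.20). Kmt2a, a lysine 4 methyltransferase, was at 148, 164 and 157 RPM in the saline mutants and 234, 243 and 287 in the wild type (log2 -0.69 ± 0.08, adjusted p = 0.00023, limma-voom). Kmt2c fell by 0.65, Ash1l by 0.43, Jmjd1c by 0.55, Arid2 by 0.59 and Chd8, an autism risk remodeler, by 0.44, all without overlap of the groups. The 3 that rose in the first list were Smyd2 (0.42 ± 0.08), Smyd3 and Dpy30, and in the last the BAF subunits Smarcb1 and Smarce1. Of 13 genes of DNA methylation, 3 were lower, namely the methyltransferase Dnmt3a (-0.39 ± 0.08) and the dioxygenases Tet2 and Tet3, of which Tet3 was at 56.7, 69.6 and 70.8 against 99.0, 111 and 110. Of 26 Polycomb genes 6 were lower and 0 higher, among them Bmi1 (-0.45 ± 0.08). Of 11 readers of lysine 9 methylation, 0 were called in either direction. Of 18 histone deacetylase and sirtuin genes 2 were higher and 2 lower, near the shares of all genes. These 2 counts ranged from 1 to 4 and from 0 to 2 when 1 library was left out. The H3 lysine 4 list had a median transcript length of 7411 bases, with 73.7% of its genes in the longest bin. That share was 65.2% for remodelers, 53.8% for DNA methylation, 45.5% for lysine 9 demethylases and 26.9% for Polycomb. Of all genes in the longest bin, 30.6% were called lower. With the division as a term the medians of the lysine 4, lysine 9 demethylase and remodeler lists were 0.02, -0.06 and 0.01. Those of the DNA methylation and Polycomb lists were 0.11 and -0.05. The count of remodelers lower was 3 without saline mutant replicate 1 or 3 and 5 without wild-type replicate 2, and that of Polycomb genes was 3 without saline mutant replicate 1 or 3.

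Among RNA-binding and transport genes, the counts are to be read against 10.3% higher and 11.6% lower among all genes. Kinesins called lower were near the share of all genes lower, and those called higher were below the share higher. Of 56 SR, hnRNP and other splicing regulators 14 were lower and 2 higher, the latter Celf3 and Celf6. Mbnl1, a muscleblind splicing factor, was at 51.7, 60.8 and 56.3 RPM against 80.5, 86.1 and 87.9 in the wild type (log2 -0.58 ± 0.08, adjusted p = 0.00085, limma-voom), and Ptbp3 and Srsf10 fell by 0.66 and 0.49. Of 34 kinesin motor genes 5 were lower and 1 higher, Kif5b at 209, 261 and 246 against 292, 312 and 341 and Kif13b at -0.85 ± 0.15; the one that rose was Kifc2, at 846, 849 and 814 against 679, 627 and 712. Of 17 long noncoding RNAs of the nucleus and of imprinted loci 7 were lower and 1 higher (median -0.22). Kcnq1ot1, the antisense RNA of the Kcnq1 imprinted domain, fell from 47.8, 68.0 and 84.5 to 25.2, 32.3 and 30.5 (log2 -1.14 ± 0.16), Malat1 from 800, 895 and 1280 to 592, 576 and 735 and Neat1 by 0.72. Wild-type replicate 3 was the highest library for Kcnq1ot1 and Malat1. The splicing count was 3 lower without saline mutant replicate 1 or wild-type replicate 2 and 5 without saline mutant replicate 3, and the kinesin count was 2 lower without saline mutant replicate 1 and 3 without saline mutant replicate 2 or 3 or wild-type replicate 2.

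At the excitatory synapse most genes did not pass the test. The counts are to be read against 10.3% higher and 11.6% lower among all genes. Of 10 SHANK, HOMER and DLGAP scaffold genes, 1 was lower and 0 higher: Homer1, at 150, 144 and 138 RPM against 289, 286 and 196 in the wild type (log2 -0.80 ± 0.13, adjusted p = 0.0019, limma-voom), a value that remained called without any one of the 6 libraries. Homer1 also makes a short activity-induced form, which gene counts do not separate. Shank1, at 693, 692 and 665 against 722, 716 and 854, and Shank2, Homer2, Homer3 and the DLGAP genes had differences between -0.15 and 0.12. Of 7 NMDA receptor genes 2 were lower, Grin3b (-1.08 ± 0.27) and Grin2c (-0.42 ± 0.12), of which Grin3b had under 5 RPM in every library. This count was 0 without saline mutant replicate 3 and 1 without saline mutant replicate 1 or 2 or wild-type replicate 2. Of 16 AMPA receptor and auxiliary genes 3 were higher, Cnih3, Cacng3 and Gsg1l, and 1 lower, Cacng2, the auxiliary protein stargazin, whose call was lost without any one of the saline mutant replicates or wild-type replicate 2. Grm2 rose from 56.8, 50.6 and 48.4 to 90.3, 71.6 and 89.5 (0.70 ± 0.11) and Grm3 fell (-0.37 ± 0.08), the 2 of 7 metabotropic glutamate receptor genes called, both coupled to inhibition of adenylyl cyclase. Of 32 regulators of spine actin 8 were lower and 2 higher. The formin Inf2 fell from 152, 170 and 143 to 85.5, 89 and 92.7 (log2 -0.79 ± 0.08), and the exchange factor Trio and the kinase Pak2 fell by 0.36 and 0.47. The actin-severing protein cofilin (Cfl1) and Arpc3 of the Arp2/3 complex rose. This count of 8 was 3 without saline mutant replicate 1 or wild-type replicate 2 and 4 without saline mutant replicate 2 or 3.

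Among genes of inhibition, Gabra2 stood out. This gene encodes the alpha-2 subunit of the GABA-A receptor, and it was at 40.3, 39.2 and 36.9 RPM in the saline mutants and 82.3, 73.5 and 84.8 in the wild type (log2 -1.03 ± 0.09 in reads, adjusted p = 9.8e-06, limma-voom). Its difference in the deposited values was -0.40 ± 0.08, which ranked among the 10 smallest p of genes lower but did not pass the adjusted test (adjusted p = 0.58, limma). All 3 UNC0642 libraries, at 41.6, 38.0 and 46.0, lay far below the lowest wild-type library. Of the other 12 GABA-A subunit genes measured, Gabra5 was called higher (0.35 ± 0.12, adjusted p = 0.044, limma-voom), a call lost without any one of saline mutant replicates 1, 2 and 3 or wild-type replicates 2 and 3, and none was called lower. The synthesis enzymes Gad1 (241, 249 and 241 against 307, 302 and 330) and Gad2 fell, and the inhibitory adhesion protein Nlgn2 rose (0.29 ± 0.08). Igsf9b, an adhesion molecule of inhibitory synapses, was at 23.4, 20.1 and 24.6 against 43.4, 41.6 and 45.4 (log2 -0.93 ± 0.10).

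Presynaptic and channel genes moved in both directions, against 10.3% higher and 11.6% lower among all genes. Of 42 genes of vesicle release 6 were higher and 5 lower, near the shares of all genes: synaptotagmin Syt5 (0.61 ± 0.08) rose, and the large active zone proteins Bsn and Pclo and the priming factor Unc13c (-0.53 ± 0.09) fell. The count of 6 was 12 without wild-type replicate 1, and that of 5 was 13 without wild-type replicate 3, 3 without wild-type replicate 1, 2 without saline mutant replicate 1 or 2 and 1 without wild-type replicate 2. Of 72 potassium channel genes 15 were lower and 6 higher. Kcna1, an axonal channel of the Shaker family, fell from 188, 200 and 161 to 110, 118 and 126 (log2 -0.62 ± 0.10, adjusted p = 0.0015, limma-voom), as did the fast-spiking channel genes Kcnc1 and Kcnc2 and the glial channel Kcnj10 (-0.56 ± 0.09). Kcnj4 rose (0.48 ± 0.08). The count of 6 was 2 without saline mutant replicate 1 or wild-type replicate 2 and 3 without saline mutant replicate 3, and that of 15 was 5 without wild-type replicate 2, 6 without saline mutant replicate 3, 7 without saline mutant replicate 1 and 8 without saline mutant replicate 2. Scn4b, an auxiliary sodium channel subunit, fell from 82.8, 92.3 and 47.4 to 31.6, 25.6 and 34.2 (log2 -1.23 ± 0.22, adjusted p = 0.0028, limma-voom). Wild-type replicate 3 lay well below the other 2 for this gene, but still above all saline mutant libraries.

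Axon guidance, adhesion and Rab genes gave small counts. Among all genes 10.3% were called higher and 11.6% lower. Axon guidance genes called lower and Rab genes called higher were near these shares, and both lists were below them in the other direction. Of 66 axon guidance genes 10 were lower and 2 higher, with Nrp1, a semaphorin co-receptor, at 29.2, 34.8 and 25.7 RPM against 48.0, 55.8 and 38.3 in the wild type (log2 -0.64 ± 0.15). The ligands Sema6b (0.39 ± 0.07) and Efnb2 (0.39 ± 0.08) were the ones that rose. The count of 10 was 2 without saline mutant replicate 3 or wild-type replicate 2 and 4 without saline mutant replicate 1. Of 27 neurexins, neuroligins and related adhesion genes 6 were higher and 1 lower; Slitrk1, a postsynaptic adhesion protein, was at 109, 101 and 124 against 90.3, 78.9 and 79.0, and Lrrtm1, a ligand of neurexins, rose by 0.35. The count of 6 was 2 without saline mutant replicate 1 or 3 or wild-type replicate 2. Of 53 clustered protocadherin genes 0 were higher and 1 lower. Of 53 Rab GTPase genes 6 were higher and 0 lower, among them the vesicle protein Rab3a, at 538, 536 and 541 against 481, 413 and 368; this count of 6 was 2 without saline mutant replicate 1 or 3 and 1 without wild-type replicate 2. Of 19 neuropeptide genes 4 were higher, Pdyn, Sst, Cck and Cort, and 0 lower. The serotonin receptors Htr1a, at 24.6, 19 and 21.7 against 13.5, 13.3 and 15.8, and Htr2c (0.49 ± 0.11) were higher, the 2 called of 13 dopamine and serotonin receptor genes.

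Genes that answer to neuronal activity were called in both directions, against 10.3% higher and 11.6% lower among all genes. Of 37 immediate early genes 5 were higher, Junb, Ier2, Nr4a1, Dusp1 and Btg2, and 8 were lower, among them Arc, Egr3, Nr4a2 and Nr4a3. The count of 8 was 3 without saline mutant replicate 1 or 3 and 5 without wild-type replicate 1 or 2. Junb was at 97.3, 125 and 112 RPM against 72.6, 52.7 and 70.1 (log2 0.80 ± 0.12). Arc, whose protein regulates AMPA receptors at active synapses, was at 264, 350 and 309 against 455, 399 and 465 (log2 -0.51 ± 0.10, adjusted p = 0.0049, limma-voom), while Fos, at 47.4, 58.3 and 48.4 against 46.9, 39.0 and 44.1, did not pass the test (adjusted p = 0.091, limma-voom). Among genes of the circadian clock 3 of 19 were higher and 5 lower. Dbp, a clock output factor, was at 73.2, 74.9 and 62.7 against 41.0, 34.4 and 42.7 (log2 0.85 ± 0.10, adjusted p = 0.00025, limma-voom), and the repressors Ciart (1.09 ± 0.18) and Nr1d1 rose as well. Clock (-0.38 ± 0.08), its partner Arntl and Per2 (-0.61 ± 0.10) fell. The labels used here give no hour of collection. Of 24 heat shock and chaperone genes 5 were lower, among them Hsph1 (369, 388 and 357 against 444, 503 and 476), and 1 was higher. The count of 5 was 2 without saline mutant replicate 1 or 3 and 1 without wild-type replicate 2. Of 27 unfolded protein response genes 4 were higher and 3 lower, and 19 had negative differences (median -0.09). When 1 library was left out the counts ranged from 2 to 4 and from 1 to 8. The amino acid response genes Chac1, Asns and Atf4 were among the 4 higher, with Chac1 at 8.77, 11.2 and 9.90 against 5.48, 4.37 and 3.37.

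Marker lists of cell types also differed between the libraries, and in bulk tissue fewer cells of a type and less RNA per cell cannot be told apart. All 22 mature oligodendrocyte genes had negative differences in reads (median -0.77). Of these, 8 were called lower and 0 higher, against 11.6% and 10.3% of all genes. Their summed level was 2030, 4320 and 3990 RPM in the saline mutants and 3740, 6110 and 6140 in the wild type. The groups overlapped in this sum, each with its replicate 1 far below the other 2, and UNC0642 libraries spanned 3230 to 6000. Myrf, the transcription factor of myelination, was at 11.1, 28 and 22.9 against 30.7, 49.1 and 45.2 (log2 -1.04 ± 0.25), and the myelin protein gene Mbp did not pass the test (adjusted p = 0.086, limma-voom). The count of 8 was 21 without wild-type replicate 1, 15 without saline mutant replicate 2, 3 without saline mutant replicate 1 and 1 without wild-type replicate 2. The list's median was 0.01 in the deposited values and -0.67 with the division as a term.

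Meningeal fibroblast genes ran the other way. All 22 measured had positive differences in the deposited values (median 0.39, against 0 for all genes). For 5 of them the 3 saline mutant libraries lay above all 3 wild-type libraries there, against 1.73% of all genes. The adjustment makes the deposited difference a weighted sum of how the UNC0642 libraries deviate from the wild-type mean. The weights are -0.333 for replicate 1 and 0.267 for replicates 2 and 3. These deposited values therefore also hold how the UNC0642 libraries differ among themselves. In reads 20 were positive and 2 negative (median 0.49). Of the 22, 5 were called higher in reads and 0 lower, against 10.3% and 11.6% of all genes. The 5 were Ptgds, Mgp, Slc22a6, Slc47a1 and Islr. Ptgds, prostaglandin D synthase, was at 560, 534 and 441 RPM against 280, 247 and 467 (log2 0.69 ± 0.17, adjusted p = 0.014, limma-voom), with wild-type replicate 3 inside the range of the mutants. The collagen genes Col1a1 (log2 0.04 in reads, 0.37 in the deposited values) and Col1a2 (0.13 and 0.31) did not pass the test. The summed level of the list was 840, 820 and 683 in the saline mutants and 460, 422 and 750 in the wild type, again with wild-type replicate 3 apart, and 458, 782 and 1080 in the UNC0642 libraries. The count of 5 was 10 without wild-type replicate 3, 1 without wild-type replicate 2, 2 without saline mutant replicate 1 and 3 without saline mutant replicate 2.

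Astrocyte markers had 3 of 23 genes lower (Slc1a2, Slc4a4 and Aqp4) and 0 higher. The count lower was near the 11.6% of all genes lower, of which 10.3% were higher. The list's median was -0.17 in reads and 0.29 with the division as a term, where 22 of the 23 genes were positive. Slc1a2, the main glutamate transporter, was at 2550, 2900 and 2670 RPM against 3440, 3440 and 4480 (log2 -0.46 ± 0.10). The count of 3 was 8 without wild-type replicate 1. Of 27 endothelial and mural genes 6 were lower and 0 higher, among them the pericyte gene Rgs5, at 36.9, 35.7 and 32.3 against 47.0, 51.9 and 58.9, and the VEGF receptor Flt1 (-0.67 ± 0.12). This count of 6 was 3 without saline mutant replicate 1 or wild-type replicate 3 and 2 without saline mutant replicate 3 or wild-type replicate 2. Of 20 microglial genes 1 was lower. Neuronal markers were mixed. The deep-layer factor Bcl11b fell from 91.0, 88.5 and 84.1 to 57.7, 58.8 and 56.6 (log2 -0.59 ± 0.08, adjusted p = 0.00054, limma-voom) while Crym, of the same list, rose from 111, 84.9 and 79.5 to 148, 155 and 154. Summed upper-layer markers held 1240 to 1360 RPM in the saline mutants and 1230 to 1330 in the wild type, and interneuron markers 1750 to 1890 and 1690 to 1750. Among interneuron genes the peptides Sst (286, 290 and 258 against 204, 196 and 221) and Cck rose, and Gad1, Gad2, Pvalb, Reln and Erbb4 fell. Of 12 striatal markers 0 were called, with sums of 398 to 410 and 396 to 440. The part of these cell type markers in the other results was not tested.

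For some genes all 6 mutant libraries, UNC0642 replicate 3 included, lay on the same side of the wild type. They were looked for among the 10 genes of smallest p in each direction in the fit with the division as a term, none of which passed the adjusted test there (adjusted p between 0.15 and 0.53, limma-voom). All 10 of the genes lower in that fit had this pattern, and 3 of the 10 higher. This choice favours the pattern, because the fit takes UNC0642 replicates 1 and 2 less replicate 3 off the saline difference. The share of all genes with the pattern was not counted. Serinc2, of the serine incorporator family, was at 4.54, 4.01 and 4.04 RPM in the saline mutants, 7.93, 8.78 and 8.26 under UNC0642 and 15.4, 19.6 and 15.3 in the wild type. Robo3, an axon guidance receptor, was at 10.3, 11.4 and 15.8, then 13.0, 16.1 and 8.65, against 24.3, 28.9 and 33.9 in the wild type. For both genes each of the 6 mutant libraries lay below each wild-type library, as they did for Gabra2 and Inf2, whose UNC0642 values were 88.9, 99.6 and 91.3. The list went on with Pxdn, a peroxidase of basement membrane, Prss23, Gse1, Igsf9b, Vipr1, a receptor of vasoactive intestinal peptide, and Tmem181b-ps. In the saline comparison alone, Serinc2 fell by 1.98, Robo3 by 1.21, Pxdn by 0.85 and Prss23 by 0.62 on the log2 scale of the reads, and each was called.

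In the other direction the 10 genes were Mgp, Thbs1, Igf2, Bmp7, Slc22a6, Pdyn, Dbp, Lfng, Ddx4 and Pvrl3. Mgp, an inhibitor of calcification, was at 14.1, 12.1 and 14.2 RPM in the saline mutants, 11.4, 15 and 21.1 under UNC0642 and 7.73, 7.46 and 9.24 in the wild type. Mgp, Igf2 and Slc22a6 belong to the meningeal list, whose level was highest in UNC0642 replicate 3. Pdyn, the precursor of dynorphin peptides, was at 39.2, 41.3 and 36.9, then 32.7, 33.5 and 38.9, against 29.2, 27.6 and 28.2 in the wild type (0.48 ± 0.09 between the saline groups, adjusted p = 0.0045, limma-voom). All 6 mutant libraries lay above the 3 wild-type libraries for Mgp, Pdyn and Dbp, and for Gpr39, at 118, 129 and 115, then 112, 128 and 103, against 76.2, 71.5 and 72.9. Thbs1, Igf2, Bmp7, Lfng and Ddx4 were not called between the saline groups; for Ddx4, UNC0642 replicates 1 and 2, at 2.37 and 2.78, lay below the wild type, at 3.99, 3.54 and 4.74.

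**Figure D5:**
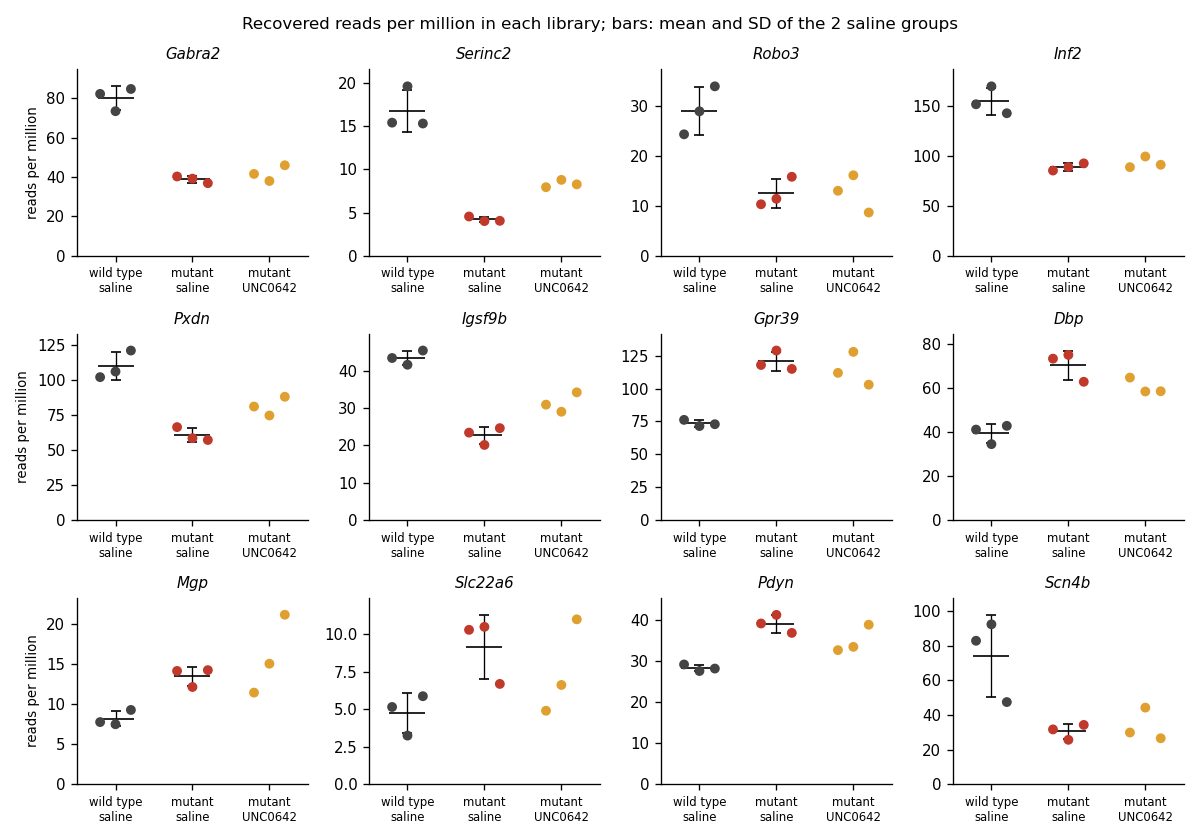
RPM (y axis, linear, separate for each gene) in each library for 12 genes; black bars are the mean and SD of the 3 wild-type and the 3 saline mutant libraries. In the panels of Gabra2, Serinc2, Robo3, Inf2, Pxdn, Igsf9b, Scn4b, Gpr39, Dbp, Mgp and Pdyn all UNC0642 points lie on the saline mutant side of every wild-type point; in that of Slc22a6 they do not.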

How the data were processed

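Total RNA of mouse prefrontal cortex was depleted of ribosomal RNA and sequenced from stranded libraries, per the labels' protocols. cutadapt, TopHat2, HTSeq and the mm9 build are named in the submitters' processing notes, with no version; these sources do not state the strand option of the counting either. The deposited signal values are on the scale of RPM, with about 3 reads added to each count and the mean log2 value of 2 sets of libraries made equal for each gene, which is read from the values themselves, since the authors' files do not describe it.

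Whole reads were recovered for 14444 of 14444 genes within a tolerance of 0.02 reads, with a largest distance of 4e-05. They give 12035098 to 15227237 reads for the 6 libraries, and RPM in the text is these reads per 1000000 of the library's recovered total. The planned test was limma 3.58.1 (R 4.3.3) with a trend on log2(value + 0.5) of the deposited values, so fold changes of low genes are understated. The second was limma-voom on the recovered reads with median-of-ratios scaling and at least 10 reads in at least 3 of the 6 libraries. P-values were adjusted over all genes by Benjamini-Hochberg, with a threshold of 0.05, and both scripts were tested on simulated data. Values with ± are log2 differences with their standard error, saline mutant less wild type.

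Genes were named by rule: Shank3, Ehmt1, Ehmt2 and the 10 nearest neighbours on each side, the 10 of smallest p in each direction in the deposited values and in the fit with the division, the 10 largest and the 10 of smallest p at a mean of 500 reads in the recovered reads, and up to 4 of smallest p of each list. Others were named after their values were seen, and a few genes that the rule names are not reported here. The 65 gene lists and the members were chosen with earlier results of these data known. Gene symbols were matched to GENCODE M21 for 13895 genes, for transcript length and shared 32-base words. The order of genes around Shank3 came from RefSeq, and no coordinates on mm9 are given. Alternatives changed the pseudocount, filter, scaling, libraries, block and threshold.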

Additional observations from a re-analysis of the deposited data

How the results depend on the processing

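In the deposited values, the 3 genes higher became 0 with all 9 libraries in the fit, 1 with a pseudocount of 0.1 and 1483 in recovered reads, and the 2 lower became 0 with all 9 libraries and 1674 in recovered reads. At an unadjusted p under 0.05 there were 125 genes with the 6 libraries and 19 with all 9 (limma). Leaving out 1 library gave 0 to 5 genes higher and 1 to 7 lower, with both highest counts without wild-type replicate 3. In recovered reads the counts were 799 higher and 993 lower with all 9 libraries, 0 and 0 with the division as a term (710 genes at an unadjusted p under 0.05), and 519 to 1638 higher and 776 to 1813 lower when 1 library was left out. Samples with the same replicate number did not deviate together (correlations of 0.121, -0.0234 and -0.154 for numbers 1 to 3), so the numbers were not taken as pairs; with the replicate block the counts were 1 higher and 2 lower in the deposited values and 1293 and 1574 in reads.

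Of the 168 genes named in the text and tested in reads, 168 kept direction and call with upper-quartile scaling, without the filter and in a trend fit of unadjusted log2 values, 166 with library totals only and 132 with all 9 libraries. With the division as a term no named gene was called: 14 that were not called before kept their direction, 114 kept their direction but lost the call and 40 changed sign; the cause was not tested. The log2 differences of those 40 were 0.22 for Aqp4, -0.16 for Arpc3, -0.18 for Asns, -0.22 for Atf4, 0.09 for Cacng2, -0.02 for Cfl1, -0.11 for Cnih3, -0.02 for Cort, -0.05 for Cox7c, 0.19 for Erbb4, -0.26 for Gabra5, 0.02 for Gad1, 0.38 for Gad2 and -0.02 for Gapdh. They were 0.46 for Homer2, 0.16 for Kcnj10, 0.79 for Lars2, 0.08 for Lrrc17, 0.09 for Malat1, 0.57 for Mir6240, -0.28 for Morf4l1-ps1, 0.05 for Mrgpra6, 0.01 for Nr4a2, 0.04 for Nr4a3, 0.02 for Pak2, 0.01 for Pclo, -0.01 for Psmb4 and -0.06 for Rab3a. They were 0.15 for Reln, 0.70 for Rn45s, -0.01 for Rpl37, -0.18 for Rpl37rt, 0.14 for Shank1, 0.23 for Shank2, 0.38 for Slc1a2, 0.34 for Slc4a4, 0.00 for Slitrk1 (just below 0), 0.28 for Tet2, -0.70 for Tmem181c-ps and 0.31 for Unc13c. Leaving out 1 library turned only genes that were not called; the ranges were -0.09 to 0.26 for Col1a1, -0.04 to 0.40 for Col1a2, -0.08 to 0.01 for Shank2 and -0.12 to 0.01 for Homer2. With 3 libraries a group, differences smaller than the spread between libraries could not be called at this depth.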
